A study of Homo sapiens with 12 samples.

Results

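UCN2, UCN, GAL and VIPR1 are 3 neuropeptide genes and 1 neuropeptide receptor gene, and they were followed in RNA-seq of MDA-MB-231 cells, an established human line of triple-negative breast cancer with a mesenchymal phenotype. The 4 genes were taken by symbol from the 19907 symbols of the deposited tables, and they were chosen on their levels in these same libraries. Their levels and fold changes are therefore given as a description, without p-values, and where a gene of the 4 is said to be called, that places it by the cutoffs and is no test of it. Cells carried either wild-type glucocorticoid receptor (wt-GR) or S134A-GR, a receptor whose serine Ser134 was changed to alanine at both alleles of NR3C1 by CRISPR knock-in. The wt-GR line was clone 34A, which passed through the same procedure without being targeted, and the S134A-GR line was clone #1, so each genotype stood for 1 clone, and genotype and clone cannot be told apart. All cells were held for 18 h in IMEM with 1% DCC serum and then treated for 6 h, with vehicle alone or with 10 ng/mL of TGFβ1. There were 3 libraries per group and 12 in all, and nothing in the labels says whether the replicates were separate cultures, so p-values and errors measure the spread between libraries, which may be technical.

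Urocortin 2 (UCN2) and urocortin (UCN) are short secreted peptides of the corticotropin-releasing factor (CRF) family. UCN2 acts through the CRF receptor CRHR2, whereas UCN binds both CRHR2 and CRHR1. Galanin (GAL) signals through its own receptors, GALR1, GALR2 and GALR3. VIPR1, also called VPAC1, is a class B G protein-coupled receptor for vasoactive intestinal peptide (VIP) and PACAP, and it raises cAMP through stimulatory G protein and adenylyl cyclase. GR is a ligand-activated transcription factor, and Ser134 is a site phosphorylated by p38 MAPK, a kinase that TGFβ1 can activate.

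The values were DESeq2-normalised read counts, and the libraries held 56362036 to 129832227 recovered reads. A floor of 3 reads stood at 2.15 to 4.89 normalised counts per library, for counting error only. It takes reads as independent, which mates of a pair counted singly would not be. VIM was at 419832 or more in every library and NR3C1 at 8336 or more, and ESR1 reached at most 7.323, while ERBB2 was at 7229 to 10589. Of the 5 luminal epithelial markers, CDH1 reached at most 12.47. KRT19 had group means of 4158 in wt-GR and 836.8 in S134A-GR cells under vehicle, EPCAM of 1024 and 378.2, GATA3 of 808.4 and 1093 and FOXA1 of 229.1 and 289.4, and the summed level of that list was 5872 to 6935 in wt-GR and 2291 to 2685 in S134A-GR libraries. Of the defining neuronal markers, NCAM1 and STMN2 were each at 4.444 or below in all libraries, whereas RBFOX3 had group means of 319.5 in wt-GR and 1195 in S134A-GR cells under vehicle and SYP of 56.77 and 75.67. Among the 6 neuronal or neuroendocrine markers in the tables, 3 averaged under the floor of 3 reads, and the summed level of the list, most of it ENO2, was 24267 to 27212 in wt-GR and 28015 to 34363 in S134A-GR libraries. The part of any of these markers in the values below was not tested. In bulk RNA, fewer cells of a kind and less RNA per cell cannot be told apart.

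A call meant that limma's false discovery rate lay under 0.05 and that the log2 fold change was 1 or more in either direction. By that rule VIPR1 alone of the 4 genes was called between the vehicle-treated lines, where 9.51% of 18579 tested genes were called. Under TGFβ1 the calls between the lines were VIPR1 and GAL, against 8.46% of tested genes. With TGFβ1 against vehicle, UCN2, VIPR1 and GAL were called in wt-GR cells, against 2.29%, and UCN2 and VIPR1 in S134A-GR cells, against 1.66%. No member was called for a difference between the 2 responses, for which 0.0592% of tested genes were called. Because the genes were picked on these contrasts, nothing is read from the counts. The 2 line comparisons and the 2 treatment comparisons share libraries (the wt-GR vehicle libraries, for one, are the reference of 2 comparisons).

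**Figure D1:**
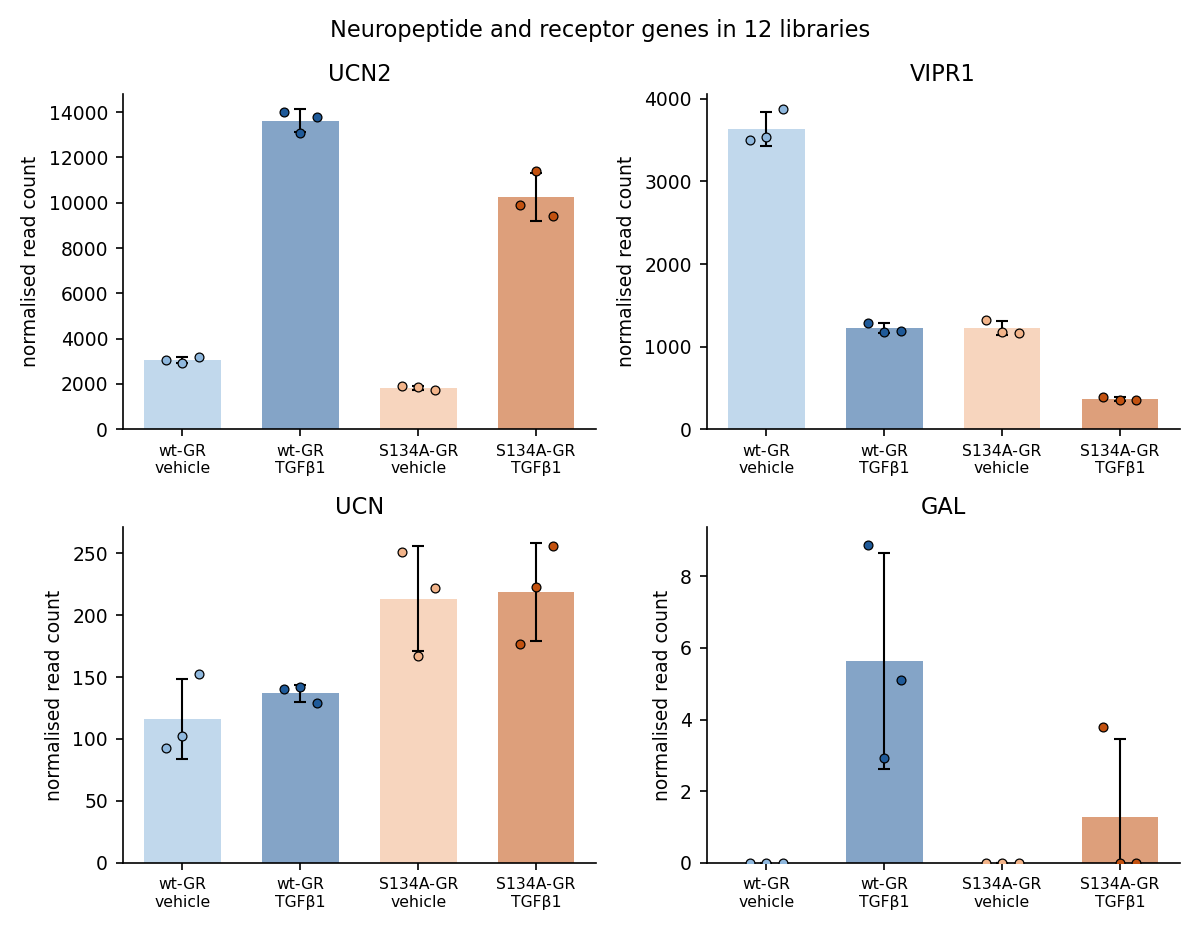
Normalised read counts of UCN2, VIPR1, UCN and GAL (y axes, linear, one scale per gene) in the 4 groups; points are libraries, bars the mean and whiskers the SD of 3 libraries, cut at 0 for GAL. UCN2 is at 13073 or more in all wt-GR libraries with TGFβ1, VIPR1 at 390.9 or less in all S134A-GR libraries with TGFβ1, and GAL is at 0 in all 6 vehicle libraries.

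UCN2 had the highest level per kilobase of exon of the 3 peptide genes, was higher with TGFβ1 in both lines, and was lower in S134A-GR than in wt-GR cells under either treatment. The gene lies on the minus strand of chromosome 3 (hg38 chr3:48561718-48563781), with 2 exon blocks and 1498 exonic bases in GENCODE v44. In the wt-GR libraries under vehicle it was at 3047, 2942 and 3197 normalised counts (3062 ± 128, SD, n = 3). With TGFβ1 it was at 14005, 13073 and 13801 (13626 ± 490). The lowest treated library thus lay more than 4 times above the highest vehicle library. In the S134A-GR libraries UCN2 was at 1897, 1887 and 1729 under vehicle (1838 ± 94.1). With TGFβ1 these cells had 9913, 11418 and 9422 (10251 ± 1040). The 4 groups did not overlap, in the order wt-GR with TGFβ1, S134A-GR with TGFβ1, wt-GR under vehicle and S134A-GR under vehicle.

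The ratio of means for TGFβ1 over vehicle was 4.45-fold in wt-GR cells (log2 fold change 2.15, SE 0.0636) and 5.578-fold in S134A-GR cells (2.48). From the highest log2 fold change down, UCN2 stood at place 67 of 18579 tested genes in wt-GR and at place 25 in S134A-GR cells. It was 1 of 107 genes (0.576%) called higher with TGFβ1 in both lines. Between the lines, UCN2 was 1.666-fold lower in vehicle-treated S134A-GR cells (log2 fold change -0.74) and 1.329-fold lower under TGFβ1 (-0.41), and neither reached the cutoff of 1. The TGFβ1 response of S134A-GR cells exceeded that of wt-GR cells by 0.32 on the log2 scale (SE 0.0899), in cells that began from the lower level.

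The sequence around the UCN2 start site is shown because UCN2 was higher with TGFβ1 in both lines, with the VIPR1 window that starts inside the annotated gene for contrast, since VIPR1 was lower with the same ligand. Each window runs from 250 bases before to 50 after a RefSeq start site (GRCh38.p14), and capitals mark the SMAD box CAGAC or, for UCN2, also the AP-1 site TGANTCA, searched on both strands. Windows were matched for UCN2, UCN and VIPR1, 3 of the 4 genes. UCN2 lies at chr3:48563732-48564031, minus strand, and VIPR1 at chr3:42502393-42502692, plus strand.
UCN2: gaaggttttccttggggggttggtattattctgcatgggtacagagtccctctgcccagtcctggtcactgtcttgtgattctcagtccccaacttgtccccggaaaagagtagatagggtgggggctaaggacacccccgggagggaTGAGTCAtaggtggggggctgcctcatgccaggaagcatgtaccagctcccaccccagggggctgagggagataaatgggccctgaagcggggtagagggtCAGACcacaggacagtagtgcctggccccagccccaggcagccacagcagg
VIPR1: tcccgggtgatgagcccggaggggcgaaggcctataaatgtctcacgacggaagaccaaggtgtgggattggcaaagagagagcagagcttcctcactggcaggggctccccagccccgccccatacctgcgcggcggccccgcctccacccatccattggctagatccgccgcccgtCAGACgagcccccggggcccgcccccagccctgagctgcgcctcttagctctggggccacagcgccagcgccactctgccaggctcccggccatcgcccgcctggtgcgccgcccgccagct
In UCN2 the AP-1 match begins at -102 and the SMAD box at -1 from the start site. An AP-1 match was present in 7.71% of 35116 promoter windows and a SMAD box in 45.3%. In the VIPR1 window the SMAD box begins at -72 and overlaps a cAMP response element half-site, TGACG read on the other strand, at -75, which 24.6% of windows held. A second VIPR1 window, at the outermost start (chr3:42489049-42489348), held none of the motifs searched. The UCN window held 2 SMAD boxes and 2 copies of the glucocorticoid response element half-site AGAACA, which was present in 14.8% of windows. UCN2 and VIPR1 windows held no such half-site, and no window of the 3 genes held the full element TGACGTCA (1.85% of windows). These are matches of letters, and nothing follows from them about binding.

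A pair of neighbours lie close enough to share or border the UCN2 reads. COL7A1, which encodes type VII collagen of the anchoring fibrils, ends 291 bases before the UCN2 start on the same strand. COL7A1 was at 1434, 1355 and 1394 normalised counts in vehicle-treated wt-GR cells and at 5082, 3916 and 5318 with TGFβ1. The log2 fold change was 1.76 (SE 0.216, limma adjusted p = 3.69e-05). In S134A-GR cells it was at 1226, 995.5 and 1224 under vehicle and at 1950, 3705 and 4369 with TGFβ1, a log2 fold change of 1.47 (limma adjusted p = 0.000237). COL7A1 thus rose beside UCN2 in both lines. Per kilobase of exon, UCN2 stood 16.3 ± 0.645 times above COL7A1 in wt-GR cells under vehicle and 21.5 ± 2.91 times with TGFβ1. In S134A-GR cells the ratio was 12 ± 1.85 under vehicle and 25.6 ± 11.1 with TGFβ1.

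PFKFB4, which encodes a regulator of glycolysis, overlaps the end of UCN2 by 298 exonic bases on the same strand, and how the counting divided reads there is not given in the sources used here. PFKFB4 had 12475 ± 360 normalised counts in vehicle-treated wt-GR cells and 16807 ± 549 with TGFβ1 (log2 fold change 0.43, limma adjusted p = 2.52e-05). In S134A-GR cells it had 10738 ± 460 and 15768 ± 1196 (0.55, limma adjusted p = 2.56e-06). The per-kilobase ratio of UCN2 to PFKFB4 was 1 ± 0.0521 and 3.31 ± 0.0127 in wt-GR and 0.698 ± 0.0383 and 2.65 ± 0.0662 in S134A-GR cells, under vehicle and TGFβ1. Of the 7 genes nearest to or overlapping UCN2, COL7A1 was the 1 called with TGFβ1 in each line, and 3 in each line rose at a false discovery rate under 0.05 when any fold was allowed, as did 11.2% of all tested genes in wt-GR and 10.0% in S134A-GR cells. The part of COL7A1 and PFKFB4 reads in the UCN2 counts was not tested.

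VIPR1, the receptor, was lower with TGFβ1, opposite to UCN2, and lower in S134A-GR than in wt-GR cells, as UCN2 was. The VIPR1 factor was about the same in each case. It spans chr3:42489299-42537573 on the plus strand, with 18 exon blocks and 7384 exonic bases. Under vehicle the wt-GR libraries had 3498, 3539 and 3870 normalised counts (3636 ± 204). With TGFβ1 they had 1289, 1178 and 1192 (1219 ± 60.5). The S134A-GR libraries had 1321, 1176 and 1170 under vehicle (1222 ± 85.9). With TGFβ1 they had 390.9, 352.3 and 354.8 (366 ± 21.6). The wt-GR vehicle libraries were above all others and the S134A-GR libraries with TGFβ1 below all others, whereas S134A-GR cells under vehicle and wt-GR cells with TGFβ1 overlapped.

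The ratio of means for wt-GR over S134A-GR cells was 2.974-fold under vehicle (log2 fold change of S134A-GR over wt-GR -1.57, SE 0.0693) and 3.331-fold under TGFβ1 (-1.73). For vehicle over TGFβ1 it was 2.982-fold in wt-GR cells (TGFβ1 over vehicle -1.58) and 3.34-fold in S134A-GR cells (-1.74). The responses of the lines differed by -0.16 (SE 0.098). Across both differences together, the wt-GR vehicle mean was 9.934-fold above the S134A-GR mean with TGFβ1. VIPR1 was 1 of 64 genes called lower with TGFβ1 in both lines, and 1 of 13 (0.07% of tested genes) called lower in all 4 comparisons.

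**Figure D2:**
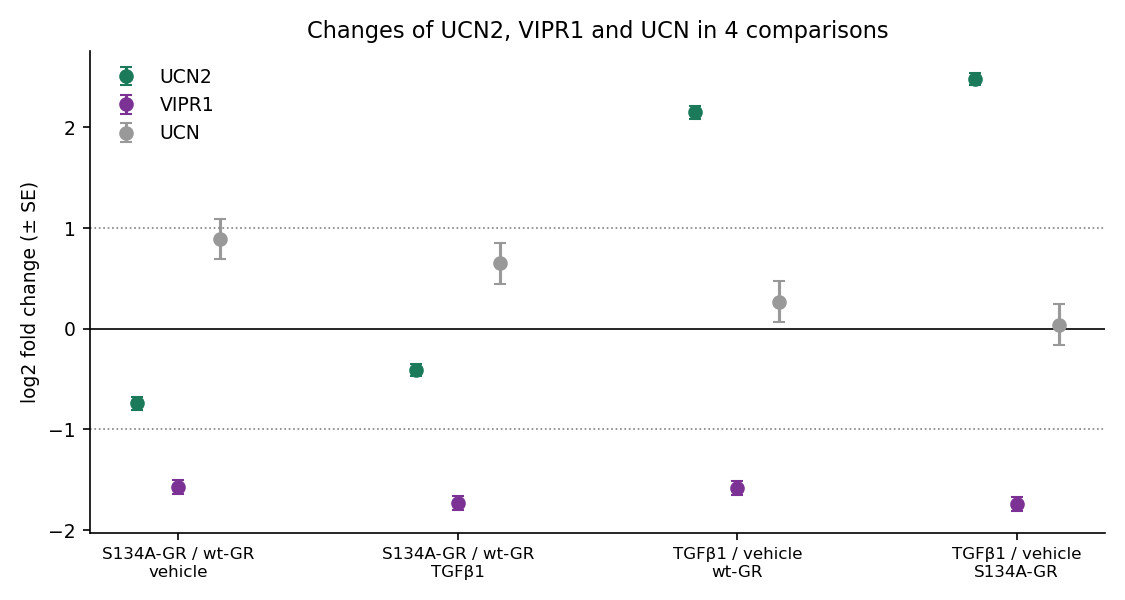
Log2 fold changes (y axis, points with SE from limma) of UCN2, VIPR1 and UCN in the line and treatment comparisons (x axis); dotted lines mark the cutoff of 1. VIPR1 lies between -1.74 and -1.57 in all 4, UCN2 is above 2 for both treatment comparisons, and UCN stays inside the cutoff.

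An antisense RNA, VIPR1-AS1, runs through the gene on the minus strand and shares 844 exonic bases with it, and the strand setting of the counting is not given in the sources used here. VIPR1-AS1 had 20.93 ± 1.95 normalised counts in wt-GR cells under vehicle, 6.456 ± 0.301 with TGFβ1, 12.82 ± 4.62 in S134A-GR cells under vehicle and 1.629 ± 1.47 with TGFβ1. It was lower with TGFβ1 in wt-GR (log2 fold change -1.55, limma adjusted p = 0.0348) and in S134A-GR cells (-2.55, limma adjusted p = 0.00184). Between the lines under TGFβ1 it was lower in S134A-GR (-1.72, limma adjusted p = 0.00897). Under vehicle VIPR1-AS1 did not pass the test between the lines (-0.72, limma adjusted p = 0.234). Its level was 0.575% ± 0.0209 of the VIPR1 count in wt-GR cells under vehicle and at most 1.47% in any library. Without strand, reads of the 2 genes in the shared bases cannot be told apart. Of the other 6 genes around VIPR1, LYZL4 was called lower in S134A-GR cells under both treatments (10.32 ± 3.52 and 1.526 ± 1.84 normalised counts under vehicle, wt-GR first). None of those 6 was called with TGFβ1. At a false discovery rate under 0.05 and any fold, with VIPR1-AS1 included, 4 of 7 were lower in S134A-GR cells under vehicle. Under TGFβ1 5 of 7 were lower, and 0 were higher under either treatment. By the same rule 26.5% of all tested genes were lower under vehicle and 25.7% under TGFβ1.

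**Figure D3:**
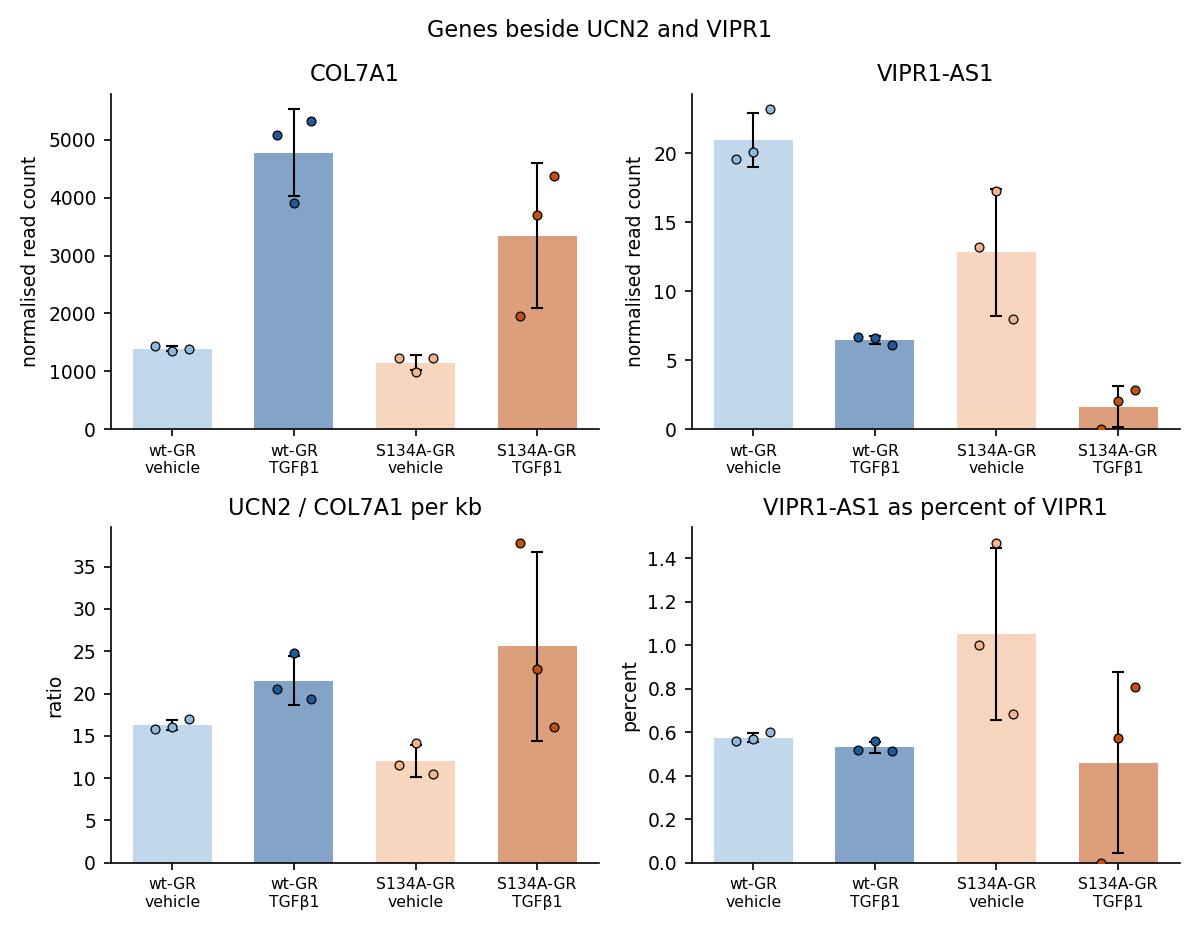
Top, normalised read counts of COL7A1 and VIPR1-AS1; bottom, the ratio of UCN2 to COL7A1 per kilobase of exon and VIPR1-AS1 as a percent of VIPR1, each in the 4 groups (points, libraries; bars, mean; whiskers, SD, n = 3). COL7A1 is higher with TGFβ1 in both lines while UCN2 stays at least 10.5 times above it, and VIPR1-AS1 is at 1.47% of VIPR1 or less.

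UCN, the urocortin that binds both CRF receptors, was higher in S134A-GR cells and showed little response to TGFβ1. It lies at chr2:27307400-27308445 on the minus strand, with 795 exonic bases. In wt-GR cells it was at 92.88, 102.5 and 152.7 normalised counts under vehicle (116 ± 32.1) and at 140, 142.1 and 129.3 with TGFβ1 (137.1 ± 6.82). In S134A-GR cells it was at 250.7, 167.3 and 221.8 under vehicle (213.3 ± 42.4) and at 176.9, 222.7 and 256.1 with TGFβ1 (218.6 ± 39.8). All S134A-GR libraries lay above all wt-GR libraries, and within each line the treatments overlapped.

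UCN was 1.838-fold higher in vehicle-treated S134A-GR cells (log2 fold change 0.89, SE 0.202) and 1.594-fold higher under TGFβ1 (0.65), both under the cutoff. Without wt-GR vehicle replicate 3 the first value was 1.10, and without S134A-GR vehicle replicate 2 it was 1.05, and in both cases UCN was called. The TGFβ1 log2 fold changes were 0.27 in wt-GR and 0.04 in S134A-GR cells. The direction of UCN between the lines was thus opposite to that of UCN2. Per kilobase, UCN2 was 14.6 ± 3.2 times above UCN in wt-GR cells under vehicle and 52.9 ± 3.9 times with TGFβ1, and in S134A-GR cells 4.71 ± 1.1 and 25.5 ± 5.32 times. TRIM54 overlaps the end of UCN by 40 exonic bases on the opposite strand and had 10.1% to 22.9% of the UCN count. TRIM54 did not pass the test in any comparison, and its mean was 23.93 and 37 normalised counts in the vehicle-treated lines, wt-GR first (log2 fold change 0.61, limma adjusted p = 0.162).

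GAL was at the limit of detection. It lies at chr11:68683779-68691175 on the plus strand, with 1300 exonic bases. No GAL read was recovered in the 6 vehicle libraries, which held 228378190 reads in wt-GR and 273544887 in S134A-GR cells and so allow up to 3 reads in each library. With TGFβ1, the wt-GR libraries held 8, 4 and 5 GAL reads (8.887, 2.929 and 5.092 normalised counts). The S134A-GR libraries with TGFβ1 held 4, 0 and 0 reads (3.804, 0 and 0 normalised counts). GAL was therefore detected in all 3 wt-GR libraries with TGFβ1 and in 1 of 3 S134A-GR libraries, and these 2 groups overlapped.

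Against the highest vehicle floor, 4.89 normalised counts for 3 reads in 1 library, the wt-GR mean with TGFβ1 (5.636 ± 3.02) was 1.153-fold higher. That ratio makes no allowance for the error of the mean, and wt-GR TGFβ1 replicate 2, at 2.929, lay under this floor. No fold is given for S134A-GR cells, whose mean of 1.268 lay under the floor. The fitted log2 fold changes (2.63 for TGFβ1 in wt-GR cells and -1.87 between the lines under TGFβ1, SE 0.684) depend on the pseudocount, and neither contrast was called by edgeR or DESeq2 on the recovered reads. The call in wt-GR cells was lost without wt-GR TGFβ1 replicate 1 (2.29). The call between the lines was lost without wt-GR TGFβ1 replicate 1 (-1.54) or 3 (-1.89) and without S134A-GR TGFβ1 replicate 2 or 3 (-1.50 each), and also when only the 2 groups compared were fitted (-1.87). At a pseudocount of 16 both calls were lost (0.43 and -0.32). In all, GAL was called between the lines in 13 of 21 settings and in wt-GR cells with TGFβ1 in 17 of 21. All 6 tested neighbours of GAL were lower in S134A-GR than in wt-GR cells at a false discovery rate under 0.05 under both treatments, from -1.37 (LRP5, a WNT co-receptor) to -0.54 (IGHMBP2) under vehicle, and LRP5 alone was called. By the same rule 26.5% of all tested genes were lower under vehicle and 25.7% under TGFβ1. None of these 6 was called with TGFβ1, and their log2 fold changes ran from -0.60 to 0.15 in wt-GR cells.

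**Figure D4:**
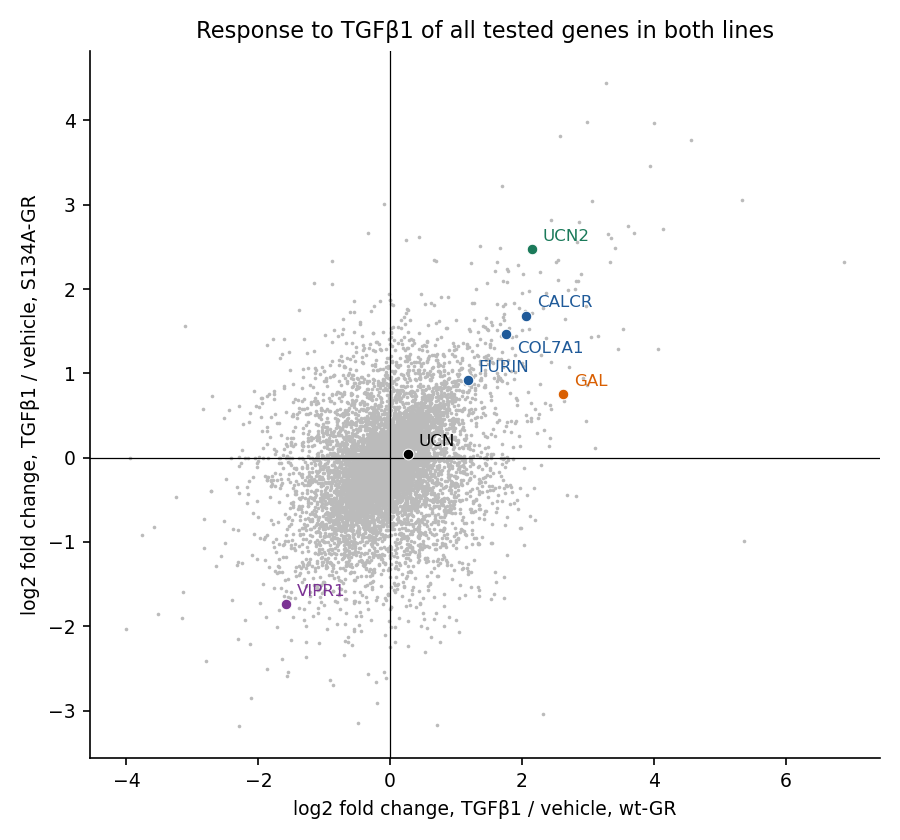
Log2 fold change with TGFβ1 in wt-GR cells (x axis) and S134A-GR cells (y axis) for all 18579 tested genes (grey), with the 4 genes and COL7A1, CALCR and FURIN in colour. UCN2 lies at 2.15 and 2.48 and VIPR1 at -1.58 and -1.74, on opposite sides of the origin.

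Partner genes of these peptides were mostly near the floor. In the urocortin and CRF list, 3 of 5 genes other than UCN2 and UCN were in the tables. The receptor CRHR2 had 1.629 to 11.31 normalised counts in single libraries, with group means of 4.416 in wt-GR and 6.269 in S134A-GR cells under vehicle. CRHBP, which binds and sequesters CRF peptides, had group means from 6.139 to 15.68. CRH, the CRF gene itself, was at 1.629, 0 and 0 in wt-GR and at 11.31, 9.123 and 7.127 in vehicle-treated S134A-GR cells, the 1 call of that list (log2 fold change 2.86, limma adjusted p = 0.00313). With TGFβ1 the CRH values were 0, 0 and 4.074 against 5.706, 2.025 and 7.153, which overlapped (log2 fold change 1.68, limma adjusted p = 0.0605). UCN3 and CRHR1 were not analysed here.

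Among the galanin receptors, GALR2 had group means of 23.46 to 27.98 and GALR3 of 1.908 to 3.697 normalised counts, and neither passed the test in any comparison. SPX, which encodes spexin, another ligand of galanin receptors, had 36.62 to 45.73. KISS1, whose peptide kisspeptin acts on a receptor related to the galanin receptors, was at 589 ± 81.5 in wt-GR and 40.59 ± 19 in vehicle-treated S134A-GR cells (log2 fold change -3.94, limma adjusted p = 8.08e-08) and at 664.6 ± 68.8 and 37.26 ± 8.11 with TGFβ1 (-4.14, limma adjusted p = 5.47e-08). KISS1 did not pass the test with TGFβ1 in either line, and its receptor gene KISS1R was at 0 in all libraries. GALR1 and GALP were not analysed here.

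For VIPR1, the ligand gene VIP had group means of 1.947 to 4.642 normalised counts. The other receptors of VIP and PACAP, VIPR2 and ADCYAP1R1, had group means of 0.7098 to 9.327 and of 0 to 1.791. None of the 3 passed the test in any comparison, and VIPR1 was the 1 receptor of its kind that was well above the floor. ADCYAP1, which encodes PACAP, was not analysed here.

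**Figure D5:**
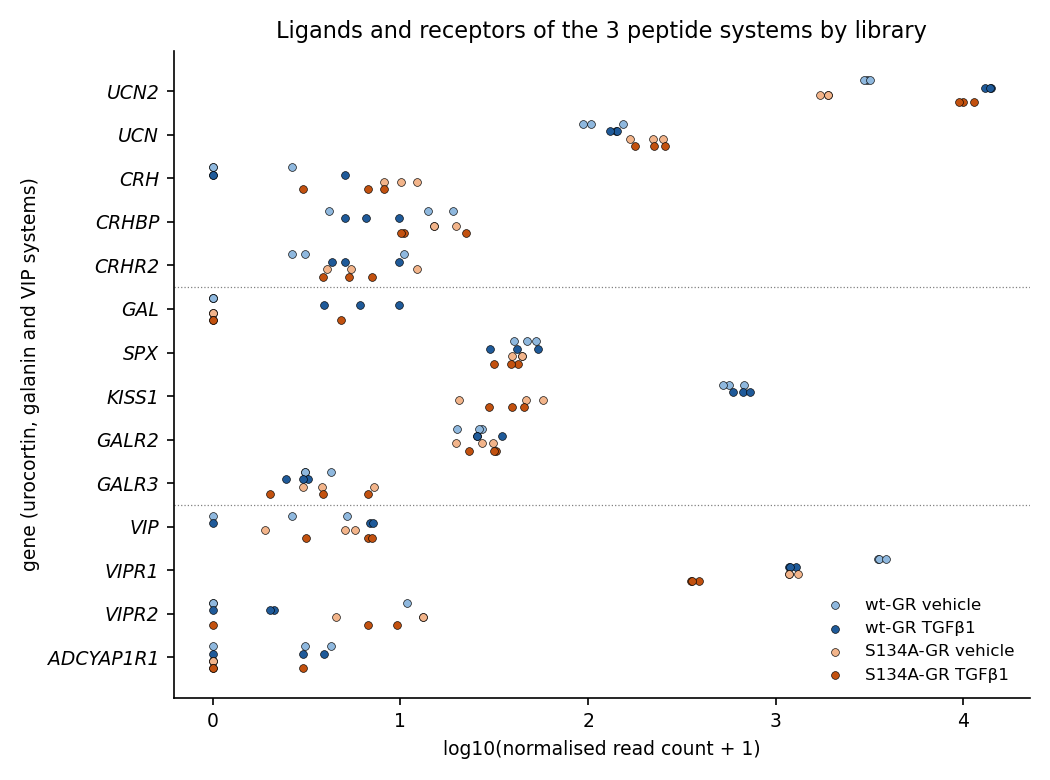
Log10 of the normalised read count plus 1 (x axis) for the genes of the urocortin, galanin (with spexin and kisspeptin) and VIP systems (y axis), each point a library, coloured by group. Gene length is not accounted for, so points compare within a row. The UCN2 points of the 4 groups are separate, KISS1 is lower in all S134A-GR libraries, and CRHR2 reaches at most 11.31 normalised counts.

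Across 9 lists of peptides, receptors, processing enzymes, secretion and signalling genes (179 without the 4 genes, 133 tested), 9 were called higher and 10 lower in S134A-GR than in wt-GR cells under vehicle (14.3% against 9.51% of all tested genes). Under TGFβ1, 6 were higher and 11 lower (12.8% against 8.46%). With TGFβ1, 4 were called in wt-GR cells (3.01% against 2.29%) and 2 in S134A-GR cells (1.5% against 1.66%). The median log2 fold change over the 133 genes was -0.03, -0.08, -0.04 and -0.06 in these 4 comparisons, beside 0.02, 0.01, -0.005 and -0.01 over all tested genes.

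CALCR was called with TGFβ1 in both lines, and FURIN and RAB27B in wt-GR cells. CALCR, the calcitonin receptor and like VIPR1 a class B receptor, rose from 19.91 ± 2.56 to 87.04 ± 14.4 normalised counts in wt-GR cells (log2 fold change 2.07, limma adjusted p = 1.67e-05). In S134A-GR cells CALCR rose from 19.69 ± 4.24 to 64.79 ± 7.29 (1.68, limma adjusted p = 0.000139). FURIN, a protease that cleaves many precursor proteins, rose from 17994 ± 189 to 40914 ± 1351 in wt-GR cells (1.18, limma adjusted p = 2.61e-11), and in S134A-GR cells from 15416 ± 297 to 29092 ± 1139 (0.92, limma adjusted p = 4.22e-10). RAB27B, a small GTPase of secretory vesicles, fell from 1775 ± 74.5 to 845.5 ± 65 in wt-GR cells (-1.07, limma adjusted p = 3.3e-07). In S134A-GR cells it fell from 1600 ± 119 to 918.7 ± 93.1 (-0.80, limma adjusted p = 7.33e-06). The other calls were of genes with few reads: TAC4, a tachykinin gene, was lower in wt-GR cells (10.55 ± 6.41 to 1.709 ± 2.96, limma adjusted p = 0.0139), and ADCY4, an adenylyl cyclase, in S134A-GR cells (6.067 ± 2.18 to 0.4769 ± 0.826, limma adjusted p = 0.0385).

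Of 8 tested genes of other class B receptors and their RAMP partners, 2 were called between the lines under vehicle and none under TGFβ1. RAMP1, which partners the calcitonin receptor family, was at 959.5 ± 118 in wt-GR and 2173 ± 110 in vehicle-treated S134A-GR cells (log2 fold change 1.18, limma adjusted p = 3.09e-08). CALCRL, the receptor that RAMPs turn toward CGRP or adrenomedullin, was lower (30.91 ± 7.06 and 12.98 ± 2.44, -1.18, limma adjusted p = 0.00475). Under TGFβ1 both kept their direction just inside the cutoff of 1. RAMP1 was then at 0.97 (limma adjusted p = 2.27e-07) and CALCRL at -0.94 (limma adjusted p = 0.0196).

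Among 26 tested genes of other peptides and hormones, 4 were called between the lines under vehicle and 6 under TGFβ1. PTHLH, the parathyroid hormone-related peptide gene, was higher in S134A-GR cells (44.6 ± 10.9 and 226.1 ± 13.3 under vehicle, log2 fold change 2.34, limma adjusted p = 7.91e-08). VGF, a granin-like precursor, was also higher under vehicle (593.7 ± 99.3 and 1300 ± 47.1, 1.14). Under TGFβ1 VGF was higher within the cutoff of 1 (605 ± 28.3 and 1084 ± 72.9, 0.84, limma adjusted p = 7.86e-06). Adrenomedullin genes were lower in S134A-GR cells: ADM was at 3885 ± 261 and 1909 ± 72.6 (-1.02) and ADM2 at 775.7 ± 58.6 and 368.8 ± 18.6 (-1.07) under vehicle. APLN, the apelin gene, was called lower under TGFβ1 (458.4 ± 34.3 and 205.3 ± 30.6, -1.16). TAC4 was called higher and GCG, the glucagon gene, lower under TGFβ1, with at most 12.16 and 2.929 normalised counts in those libraries.

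Of 17 tested propeptide processing enzymes, 3 were called higher and 2 lower in vehicle-treated S134A-GR cells. PCSK1, the prohormone convertase of regulated secretory cells, was at 7.801 ± 2.4 and 82.77 ± 18.7 (log2 fold change 3.26, limma adjusted p = 7.08e-06). CPZ, a carboxypeptidase, was at 51 ± 7.74 and 165.2 ± 16.1 (1.68), and PCSK4, a convertase best known from germ cells, at 225.9 ± 15 and 558.9 ± 77.5 (1.30). QPCT, which forms the pyroglutamate end of some peptides, was at 119.1 ± 17.4 and 0.6758 ± 1.17 (-6.37, limma adjusted p = 1.62e-08). PAM, which forms the amide end carried by VIP, was at 28554 ± 1061 and 23080 ± 776 (-0.31, limma adjusted p = 3.55e-05), within the cutoff of 1.

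Among 16 tested granin and secretion genes, SYT1, a calcium sensor of vesicle release, was higher in vehicle-treated S134A-GR cells (426.1 ± 57.3 and 1004 ± 32.2, log2 fold change 1.24, limma adjusted p = 1.01e-07), and the vesicle GTPase genes RAB3B (-1.93) and RAB3D (-1.62) were lower. Of 11 tested peptidases that clear neuropeptides, ANPEP alone was called, under vehicle (37.75 ± 9.78 and 16.35 ± 6.56, -1.21, limma adjusted p = 0.00482). Downstream of the receptors, 45 genes of G protein and cAMP signalling were tested. ARRB1, an arrestin that uncouples receptors, was lower in S134A-GR cells (5871 ± 169 and 2035 ± 83.4 under vehicle, -1.53, limma adjusted p = 5.19e-11), and GNAL, a stimulatory G protein subunit gene, was higher (124 ± 23 and 285.6 ± 12.9, 1.21). PDE3A, a phosphodiesterase, was called lower under TGFβ1 (-1.36). GNAS, the main stimulatory subunit, was at 135537 ± 3391 and 143552 ± 1261 under vehicle (0.08, limma adjusted p = 0.056).

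Likeness of pattern was measured by Pearson's r of log2(normalised count + 1) over the 12 libraries. It was taken among 14422 genes with a mean of at least 20 normalised counts, as a description: the points share 4 group means and their library's depth. The genes most like UCN2 were ANGPTL4 (r = 0.999), a secreted inhibitor of lipoprotein lipase, PODXL (0.996), a sialomucin, and NKILA (0.994), a long non-coding RNA. ANGPTL4 was at 2023 ± 96.5 and 7752 ± 199 in wt-GR and 1192 ± 73.5 and 5834 ± 498 in S134A-GR cells, vehicle first. The genes most like VIPR1 were STX3 (0.996), a syntaxin, FOXA2 (0.994), a forkhead transcription factor, and TBC1D8 (0.993). TBC1D8 was at 6275 ± 243 and 3456 ± 177 in wt-GR and at 3571 ± 84.7 and 1867 ± 121 in S134A-GR cells, smaller steps than those of VIPR1. For UCN the nearest were OSGEP (0.977), a tRNA modification enzyme, THUMPD3-AS1 (0.969) and IDH3G (0.967), a subunit of mitochondrial isocitrate dehydrogenase. For GAL they were KPNA2 (0.933), LOC101927482 (0.905) and DFFA (0.898), and with 21 GAL reads in all these values carry little weight. Between the members, r was -0.514 for UCN2 and VIPR1, -0.044 for UCN2 and UCN and -0.700 for UCN and VIPR1. For GAL, with its 21 reads, r was 0.729 with UCN2, -0.253 with UCN and -0.186 with VIPR1.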

How the data were processed

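Total RNA was made into TruSeq mRNA libraries and sequenced in 75-base paired-end mode. Per the labels and the study's methods, the authors checked reads with FastQC 0.11.7, trimmed with Trimmomatic, aligned to hg38 with HISAT2, counted with featureCounts (Subread) and normalised with DESeq2 1.22.2; annotation, strand setting and the other versions are not given in the sources used here. The deposited unit is a signal, normalised counts, 1 value per symbol and library, with replicates not pooled. In each library 100% of values were whole multiples of 1 step (tolerance 0.01), so whole reads were recovered (size factors 0.614 to 1.40). Read-pair counting as fragments is not stated. Some low counts were even throughout: GCGR had 8 reads in all, in 4 libraries, and NTS had 4, in 2. Others were not: AGRP had 9 reads in all, in 3 libraries, and MME had 5, in 2. If both mates of a pair were counted, reads are not independent. The GAL reads would then stand for fewer fragments, and a floor of 3 reads would be too low.

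Genes with at least 10 recovered reads in all (18579) were fitted as log2(normalised count + 1) with limma 3.58.1 (R 4.3.3), 4 group means, eBayes with trend and Benjamini-Hochberg adjustment. Since these values had already been scaled, count models served as alternatives only. Fold changes on this scale understate low genes. edgeR 4.0.16 and DESeq2 1.42.0 ran on recovered reads as alternatives, beside other pseudocounts, filters, scalings, a replicate block and leaving out each library. The fit was tested on simulated data. Positions and exon lengths are from GENCODE v44, and promoter sequences from RefSeq. An exact permutation test of 3 against 3 libraries cannot go below 0.1, so none was used. The members and gene lists were chosen with earlier results of these data known. Named genes were the members, the genes of their 3 peptide systems, called genes of each list (the 3 largest where more passed), the 3 nearest genes on each side of a member with those overlapping it, and the 3 most like it. A few more are named as examples: PAM and GNAS, chosen after their values were seen. Pairs of replicates differed beyond sampling noise in a chi-square test of their reads (9.06 to 46.2 for each degree of freedom), so none was merged. Of 36 listed genes with no matching symbol nothing is said beyond "not analysed here". Results for a few genes are not reported here.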

Additional observations from a re-analysis of the deposited data

Results flagged for a closer look

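Among the genes of the lists, 2 had a TGFβ1 response that differed between the lines by limma's interaction term, without reaching the cutoff of 1. FURIN rose by 0.27 less in S134A-GR than in wt-GR cells (difference of log2 fold changes -0.27, SE 0.0506, adjusted p = 0.0351), and all 3 treated libraries lay above all 3 vehicle libraries in each line. GRK5, a kinase that phosphorylates activated G protein-coupled receptors, fell from 5813 ± 185 to 3170 ± 113 normalised counts in S134A-GR cells and from 2983 ± 173 to 2456 ± 172 in wt-GR cells, a difference of -0.59 (SE 0.0793, adjusted p = 0.00717).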

How the results depend on the processing

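Of 490 values recomputed under the alternatives, 463 kept about their size, 11 moved, and 16 counts changed by over 1.5 times (11 fell, 5 rose). Keeping size did not mean keeping a call. Between the lines, UCN under vehicle was called in 2 of 22 settings and GAL under TGFβ1 in 13 of 21. Of the members' changes, only the small one of UCN with TGFβ1 in S134A-GR cells changed sign, from -0.13 to 0.18. Over 22 settings the UCN2 log2 fold change with TGFβ1 ran from 2.13 to 2.19 in wt-GR and from 2.40 to 2.53 in S134A-GR cells, and that of VIPR1 from -1.78 to -1.53 over its 4 comparisons; both genes were chosen on these values. GAL moved most. For TGFβ1 in wt-GR cells its log2 fold change was 3.50 at a pseudocount of 0.5, 0.43 at 16, 5.53 by edgeR and 4.65 by DESeq2. In S134A-GR cells it was 3.43 by edgeR and 2.84 by DESeq2, and 0.00 to 1.13 with 1 library left out; 0.00 came without TGFβ1 replicate 1, the 1 library with reads. Between the lines under TGFβ1, and for the difference of responses, it was -0.32 at a pseudocount of 16 and -2.63 to -1.50 with 1 library left out. GAL could not be fitted under the filter at a mean of 20. Calls in the lists fell from 19 and 17 between the lines to 10 and 10 at a cutoff of 1.5 and rose to 72 and 71 at any fold. In wt-GR cells with TGFβ1 they fell from 4 to 2 and rose to 34. In S134A-GR cells with TGFβ1, 2 calls became 31 at any fold, 1 by edgeR, DESeq2, either other pseudocount or the filter at a mean of 20, and 1 to 3 with 1 library left out (1 without S134A-GR vehicle replicate 1 or 3 or wt-GR TGFβ1 replicate 3, 3 without S134A-GR vehicle replicate 2). The difference of responses had 0 calls by limma and 2 at any fold. The cause of these changes was not tested.

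Replicate numbers did not pair the libraries: same-numbered libraries deviated with a mean r of 0.0144 (lowest -0.0546, highest 0.135) and others with -0.00715. With the replicate block, the UCN2 and VIPR1 log2 fold changes for TGFβ1 in wt-GR cells were 2.15 and -1.58, and the lists' calls were 19, 17, 4, 2 and 0, as without it. Depth limits GAL, CRHR2, GALR3, VIP, VIPR2 and ADCYAP1R1, which lay at or near the floor of 3 reads. All-gene medians stayed within 0.02 under each scaling.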

Other observations

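Among the genes that ran opposite to VIPR1 over the 12 libraries was AKAP12 (r = -0.997), a scaffold for protein kinase A. AKAP12 was at 8586 ± 1040 and 19837 ± 465 normalised counts in wt-GR and at 19058 ± 631 and 54174 ± 890 in S134A-GR cells, vehicle first. Its log2 fold changes were 1.16 and 1.45 between the lines and 1.21 and 1.51 with TGFβ1, each smaller in size than that of VIPR1 and opposite in sign. The genes most opposite to UCN2 were MERTK (-0.991), a receptor tyrosine kinase, and CIITA (-0.989), the MHC class II transactivator, which was at 1471 ± 102 and 509.8 ± 35.2 in wt-GR and 1778 ± 67.2 and 561.7 ± 42.8 in S134A-GR cells. These genes were chosen after their values were seen, and their correlations are descriptions over 4 group means.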
